A study of Mus musculus with 6 samples.

Results

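Osteoclast-regulating signals and osteoclast genes were examined in bone of mice given growth hormone (GH). The 6 genes were Tnfrsf11b, Il1a, Il1b and Sema3a, which encode signals that reach osteoclasts or their precursors, and Calcr and Mmp9, which osteoclasts use themselves. All array rows that carried only the symbol of one of them were taken, 7 rows among 21446. Mmp9 had 2 rows and each of the other 5 genes had 1, so the genes make up 6 of the 16678 features tested, of which 8803 were named genes. They were chosen by their 24-hour ratios in these same data, and all of them passed an adjusted p of 0.05 at that time in a fit over all 6 arrays. Their 24-hour values are therefore a description with no test, and tests are given at 6 hours, on the 6-hour arrays alone. These tests are not fully independent of the choice, since the 6-hour arrays gave part of the spread in that fit and genes of low spread were favoured, so their p values may be too small.

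The mice were C57BL/6J-Ghrhr<lit> (lit/lit) animals, 4 weeks old, in which disruption of the receptor for growth hormone-releasing hormone leaves little GH, and the controls carried the same allele. One group received GH at 4 mg per kg by a single subcutaneous injection and the other received PBS, and bone was taken 6 or 24 hours later from separate animals. Each of 6 two-colour arrays set a GH pool of 2 animals (Cy5) against a PBS pool (Cy3), with replicates 1 to 3 at 6 hours and replicates 4 to 6 at 24 hours. The sources used here do not give sex, skeletal site or whether marrow was removed. The values are log2 ratios of GH over PBS, a direction that is likely from the dyes in the labels but not stated, and a ratio carries no level of expression. In such bulk RNA, a change in the number of cells of a type and a change in RNA per cell cannot be told apart. No dyes were swapped, so a dye effect of a single probe enters every ratio and cannot be told apart from GH. The spread differed between arrays, with an SD over all rows of 0.466 on replicate 1 and of 0.676 to 0.913 on the others, and replicate 1 correlated with the others at no more than 0.364 over features. Only the number of arrays can be given as a limit on precision, since the files hold no intensities, and for the same reason the defining markers of bone could not be checked by level.

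Osteoclasts are the cells that resorb bone, and they form from precursors of the monocyte lineage. The cytokine RANKL (Tnfsf11) drives this by binding its receptor RANK (Tnfrsf11a), and osteoprotegerin, the product of Tnfrsf11b, is a soluble decoy that captures RANKL. The interleukin-1 cytokines, from Il1a and Il1b, promote osteoclast formation and activity, while semaphorin 3A, which binds neuropilin-1 (Nrp1) together with a plexin, restrains it. Calcr encodes the calcitonin receptor, through which calcitonin halts resorption, and Mmp9 encodes gelatinase B, a protease of osteoclasts that neutrophils also store in their granules.

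Il1a and Il1b lie near each other on chromosome 2 and had ratios above 0 on all 6 arrays, so the sequence before their starts is shown as the pair of regulatory sequences the results touch. Both come from RefSeq promoter windows of GRCm38.p6, which held 4 of the 6 genes (Il1a, Il1b, Sema3a and Calcr), and each run gives the 250 bases before the annotated start, 5′ to 3′ on the gene's own strand. Il1a lies at chr2:129309973-129310222 and Il1b at chr2:129371140-129371389, both on the minus strand. Capitals mark TATAAA in both and, in Il1a, also TGANTCA.
Il1a: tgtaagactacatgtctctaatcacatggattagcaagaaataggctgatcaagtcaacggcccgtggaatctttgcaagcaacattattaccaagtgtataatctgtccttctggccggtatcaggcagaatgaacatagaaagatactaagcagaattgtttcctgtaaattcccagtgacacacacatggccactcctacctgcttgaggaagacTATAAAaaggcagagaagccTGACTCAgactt
Il1b: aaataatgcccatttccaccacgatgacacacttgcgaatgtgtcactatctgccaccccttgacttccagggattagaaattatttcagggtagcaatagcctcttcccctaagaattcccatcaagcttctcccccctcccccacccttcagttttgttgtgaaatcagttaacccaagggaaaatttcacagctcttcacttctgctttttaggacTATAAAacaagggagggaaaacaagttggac

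TATAAA, the letters of a TATA box, began 32 bases before the start of Il1a and 31 before that of Il1b, and stood in 12.4% of the 32851 windows of this length. The AP-1 letters TGANTCA began 12 bases before the start of Il1a and stood in 6.75% of windows. Also searched, on both strands like the others, were the GAS letters TTCNNNGAA bound by STAT proteins (7.02% of windows), the C/EBP letters TTGCNNAA (9.56%) and the NF-kB consensus (7.25%). No motif searched overlapped another in these windows, and the Sema3a window and both Calcr windows held no match. A match of letters is a description and not a binding site.

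The decoy receptor gene Tnfrsf11b had log2 ratios of -0.0145, -0.0589 and 0.25 at 6 hours and of 0.15, 1.29 and 1.30 at 24 hours. The 6-hour values lay around 0, replicates 5 and 6 stood at more than 1, and replicate 4 lay within the range of the 6-hour arrays, so the times overlapped. At 6 hours the mean was 0.059 ± 0.17 (SD, n = 3 arrays; 95% interval -0.30 to 0.42, limma on the 6-hour arrays alone, adjusted p = 0.811). The 24-hour mean of 0.91 ± 0.66 (SD, n = 3), a 1.88-fold ratio, was 0.72 without replicate 5 or without replicate 6 and 1.30 without replicate 4.

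Il1a, the cytokine gene whose precursor is active without cleavage, had 0.19, 0.70 and 0.68 at 6 hours and 0.59, 0.60 and 1.08 at 24 hours. All 6 arrays were above 0, with replicate 1 lowest and replicate 6 highest, and the times overlapped. Its 6-hour mean was 0.52 ± 0.29 (1.44-fold; 95% interval 0.094 to 0.95, unadjusted p = 0.0261 and adjusted p = 0.147 in limma), which did not pass. The 24-hour mean was 0.76 ± 0.28, a 1.69-fold ratio.

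Il1b, whose product becomes active after cleavage by caspase-1, had 0.99, 0.65 and 0.40 at 6 hours and 0.21, 1.14 and 1.27 at 24 hours. Again every array lay above 0, and the lowest value was that of a 24-hour array, replicate 4. The 6-hour mean of 0.68 ± 0.29 (1.60-fold; 95% interval 0.25 to 1.11, unadjusted p = 0.0102 and adjusted p = 0.105) did not pass. At 24 hours the mean was 0.87 ± 0.57, a 1.83-fold ratio.

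Sema3a, the gene of the restraining semaphorin, was the only one of the 4 signal genes with ratios below 0 throughout. It had -1.32, -0.86 and -0.56 at 6 hours and -0.76, -1.84 and -0.67 at 24 hours. Replicates 1 and 5 were lowest, and the times overlapped. The 6-hour mean was -0.91 ± 0.39 (1.88-fold lower; 95% interval -1.41 to -0.42), with the smallest p of the 6 genes, an unadjusted p of 0.00534 and an adjusted p of 0.0875, and did not pass. Its 24-hour mean of -1.09 ± 0.65, a 2.13-fold ratio, depended on replicate 5 and was -0.71 without it.

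Of the osteoclast genes, Calcr had 0.19, 1.09 and 1.05 at 6 hours and 0.83, 0.93 and 1.75 at 24 hours. All arrays were above 0, replicate 1 was lowest and replicate 6 highest. The 6-hour mean was 0.78 ± 0.51 (1.71-fold; 95% interval 0.19 to 1.37, unadjusted p = 0.0199 and adjusted p = 0.133) and did not pass. The 24-hour mean was 1.17 ± 0.50, a 2.25-fold ratio and the largest fold of the 6 genes at that time.

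Mmp9 was the other osteoclast gene and lay on the other side of 0 from Calcr at 24 hours. Row 1 had 0.14, 0.070 and -0.0439 at 6 hours and -0.51, -0.25 and -0.60 at 24 hours. Row 2 had -0.0145, 0.15 and 0.057 at 6 hours and -0.25, -0.29 and -0.71 at 24 hours. In each row, all 6-hour arrays were close to 0 and all 24-hour arrays lay below them. The gene mean over both rows was 0.059 ± 0.052 at 6 hours (95% interval -0.27 to 0.39, adjusted p = 0.790) and -0.44 ± 0.20 at 24 hours, a 1.35-fold lower ratio.

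**Figure D1:**
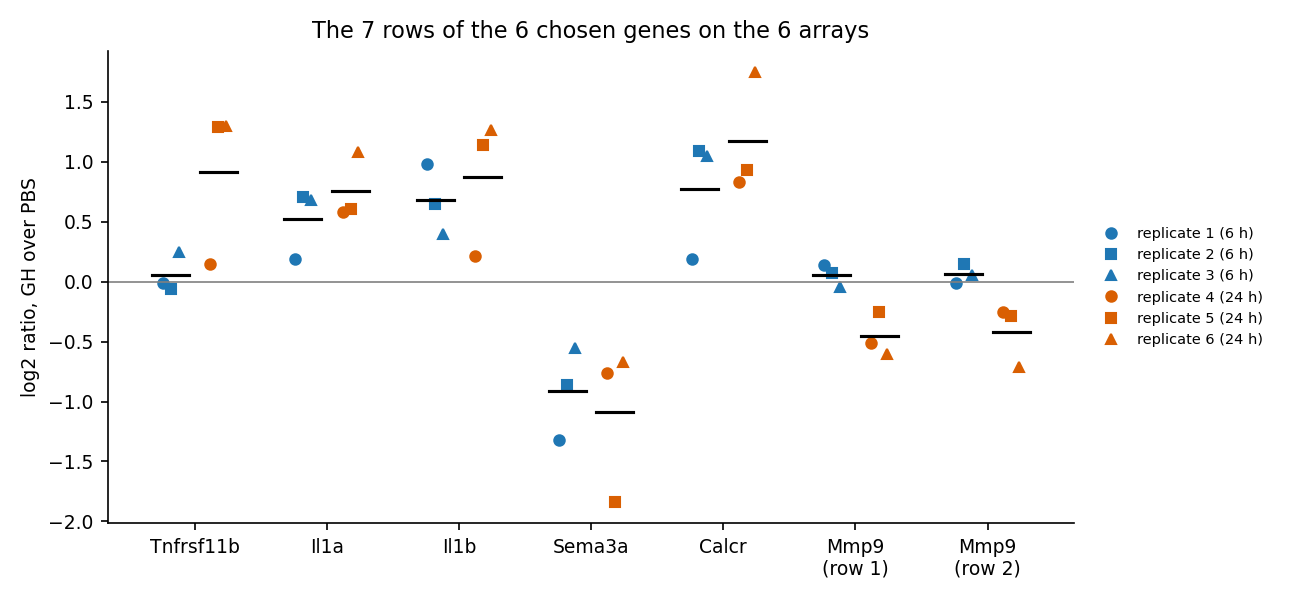
Log2 ratio of GH over PBS (y axis) for the 7 rows of the 6 genes (x axis), with a point for each array, blue at 6 hours and orange at 24 hours, and a black bar for the mean of 3 arrays. Il1a, Il1b and Calcr lie above 0 and Sema3a below 0 on all arrays, Tnfrsf11b is near 0 except on replicates 5 and 6, and both Mmp9 rows are near 0 at 6 hours and below 0 at 24 hours.

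The signals and the osteoclast genes were then set side by side at the 2 times. Il1a, Il1b, Sema3a and Calcr had the sign of their 24-hour mean on all 3 arrays at 6 hours, while Tnfrsf11b and Mmp9 had 6-hour means of 0.059 each. Such a count of 4 of 6 is read against all features past the 24-hour threshold in the joint fit of limma with a value on all 3 arrays at 6 hours, of which 82.2% had all 3 of their 6-hour arrays on the side of the 24-hour mean. Having the same sign at both times thus did not set these genes apart. Of the 6 genes, Mmp9 alone had times that did not overlap, and 8.6% of features with 6 values had that property. The difference between the times (24 minus 6 hours) was 0.85 for Tnfrsf11b, -0.50 for Mmp9 and between -0.17 and 0.39 for the remaining genes. In the joint fit of limma it passed for none of the 6 genes (adjusted p = 0.982 for each) and for 0 of 16678 features, with 506 at an unadjusted p under 0.05. No difference between the times is thus shown for these genes.

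At 6 hours none of the 6 genes passed an adjusted p of 0.05 with limma on the 6-hour arrays alone, and 4 had an unadjusted p under 0.05 (Il1a, Il1b, Sema3a and Calcr). Over all features that fit called 0 (0%), with 4287 of 16678 at an unadjusted p under 0.05 and a smallest adjusted p of 0.0739. In a joint fit, which estimates the spread from all 6 arrays, 603 features (3.62%) passed at 6 hours and again none of the 6 genes did, with adjusted p of 0.0979 (Sema3a), 0.113 (Il1a), 0.119 (Calcr), 0.131 (Il1b), 0.776 (Mmp9) and 0.892 (Tnfrsf11b). With array weights, which gave replicate 1 a weight of 0.307 and replicate 2 one of 3.44, Calcr (1.02, adjusted p = 0.00936), Sema3a (-0.83, 0.0106), Il1a (0.67, 0.0120) and Il1b (0.62, 0.0142) passed at 6 hours. Their adjusted p values ranged from 0.0585 to 0.675 over the other settings, and the weighted fit called 6646 of all features, so a call there separates these genes little from the rest.

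**Figure D2:**
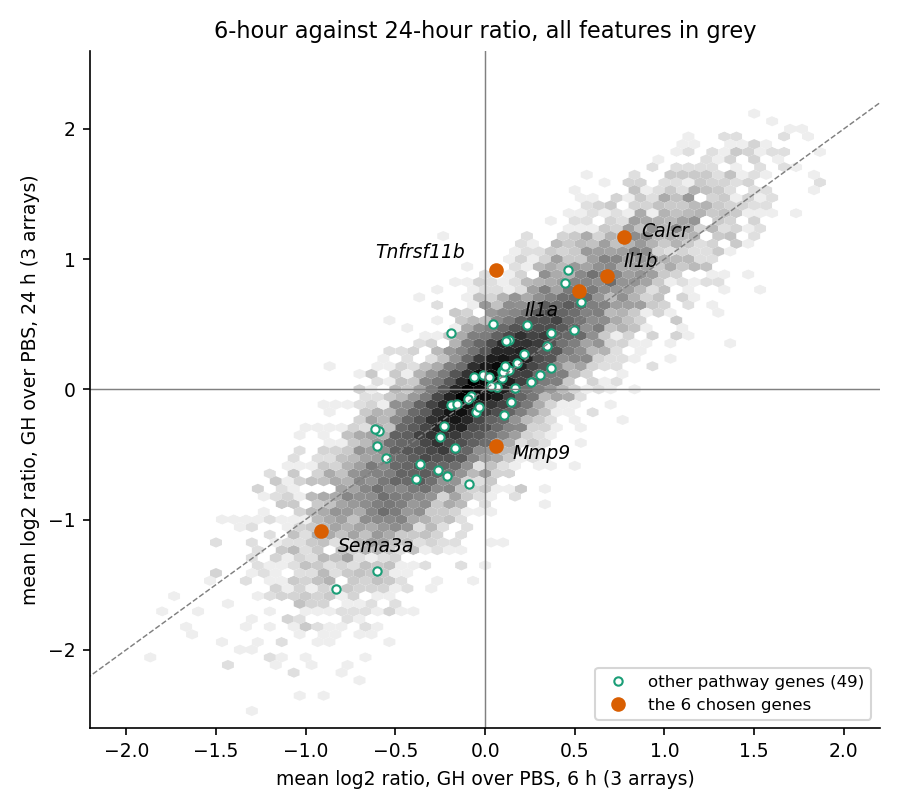
Mean log2 ratio of GH over PBS at 6 hours (x axis, 3 arrays) against 24 hours (y axis, 3 arrays), with all features as grey hexagons (darker for more features, on a log scale), the 6 genes in orange, 49 other pathway genes in open green circles and a dashed line of equal ratios. Il1a, Il1b, Sema3a and Calcr lie nearer to the dashed line than Tnfrsf11b (0.059 and 0.91) and Mmp9 (0.059 and -0.44).

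The 24-hour threshold that chose the genes was passed by 20.6% of all features in the joint fit, so passing it is common. The last of the 6 genes inside it was Mmp9 (adjusted p = 0.0480), and the nearest pathway gene outside was the plexin gene Plxnb1 (0.0533). Taken singly, Mmp9 row 1 was past it (0.0445) and row 2 was not (0.0691). All 6 were past it with all arrays, 4 without replicate 1 (Il1a, Il1b, Sema3a and Calcr), 2 without replicate 2 or without replicate 3 (Il1a and Calcr both times), 2 without replicate 4 (Tnfrsf11b and Il1b), 1 without replicate 5 (Calcr) and 0 without replicate 6. With arrays scaled to equal spread or quantile-normalized, Il1a and Calcr were past it, and with array weights all but Tnfrsf11b were (5 of 6). Replicates 4 and 6 share a scan file prefix in the labels that the other arrays do not have. On replicate 5 alone, which has the prefix of the 6-hour arrays, the ratios were 1.29 for Tnfrsf11b, 0.60 for Il1a, 1.14 for Il1b, -1.84 for Sema3a, 0.93 for Calcr and -0.27 for Mmp9. Over replicates 4 and 6 the means were 0.72, 0.83, 0.74, -0.71, 1.29 and -0.52 in the same order. Since each gene has 1 sign on all 3 of these arrays, no split of them could change a sign. With the prefix as a covariate the 24-hour ratio rests on replicate 5 alone, so no call of that fit is given. With each time fitted alone, Calcr was past the threshold.

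The other genes of these pathways were taken from 6 lists by role, and 49 of 85 were measured under a single symbol. At 24 hours 2 of them rose and 4 fell in the joint fit of limma, together 12.2% against 17.3% of named genes and 20.6% of all features, and 43 did not pass. Their median ratio was 0.025 at 24 hours and 0.032 at 6 hours, beside medians of 0.0033 and -0.016 over all features. At 6 hours 0 of 49 passed in the joint fit (6 at an unadjusted p under 0.05) and 0 on the 6-hour arrays alone (5 at an unadjusted p under 0.05). The 24-hour count was 0 without replicate 6 (9 genes at an unadjusted p under 0.05), 1 without replicate 4 and 10 without replicate 1.

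Around osteoprotegerin, 1 of 7 measured genes of the RANKL axis fell and none rose at 24 hours as gene means. It was Lgr4 (-0.69 ± 0.18, SE, n = 3 arrays, adjusted p = 0.0418), which encodes a further receptor for RANKL. Map3k14 and Ikbkb of this axis averaged rows that opposed each other. Tested alone with limma at 24 hours, Map3k14 had 0.68 in row 1 (adjusted p = 0.0290) and -0.75 in row 3 (0.0445). Likewise, Ikbkb had 0.84 in row 2 (0.0331) and -0.65 in row 3 (0.260). Tnfsf11, the gene of RANKL itself, had -0.0893, 0.31 and 0.21 at 6 hours and -0.25, 0.043 and -0.0740 at 24 hours, with arrays on both sides of 0 at each time (adjusted p = 0.503 and 0.612). Tnfrsf11a, the gene of RANK, had a 24-hour mean of -0.12 ± 0.37 (adjusted p = 0.826) and ranged from -1.32 on replicate 5 to 0.86 on replicate 6. The adaptor gene Traf6 had -0.55 at 6 hours, where replicate 2 held no value, and -0.53 at 24 hours and did not pass. Thus the ratio of the decoy gene was high on replicates 5 and 6, while that of the ligand gene lay between -0.25 and 0.31 on all arrays.

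Of 6 measured partners of Il1a and Il1b, 1 fell and none rose at 24 hours. Casp1, which encodes the protease that cleaves pro-IL-1 beta, had 0.29, -1.25 and -0.84 at 6 hours and -1.79, -0.84 and -1.56 at 24 hours (24-hour mean -1.39 ± 0.32, SE, adjusted p = 0.0304). Casp1 was thus below 0 on all 3 24-hour arrays, and its times overlapped. Both cytokine genes had ratios above 0 on all 6 arrays. The receptor gene Il1r1 had -0.16 at 6 hours and -0.11 at 24 hours (adjusted p = 0.637 and 0.694), and its partner Il1rap had -0.19 and 0.43 (0.445 and 0.0834). The adaptor gene Myd88 and the kinase genes Irak1 and Irak2 did not pass either. Il1rn, the gene of the receptor antagonist, was not analysed here.

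Among the 6 measured genes of the semaphorin axis other than Sema3a, its receptor gene Nrp1 fell at 24 hours (-0.66 ± 0.16, SE, adjusted p = 0.0347) and 5 did not pass. The call was an average of 3 rows that disagreed. Row 3 lay below 0 on all 6 arrays, from -0.56 (replicate 1) to -1.74 (replicate 5), and alone had a 24-hour mean of -1.43 ± 0.17 (adjusted p = 0.00892). Rows 1 and 2 had 24-hour means of -0.37 (0.286) and -0.20 (0.682) and arrays on both sides of 0. Of the plexin genes, Plxnb1 had -0.37 and Plxna3 0.43 at 24 hours, Plxna2 and Plxna4 had -0.048 and 0.14, and Plxna1 was not analysed here.

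None of 11 measured genes of other cytokine signals to osteoclasts passed at 24 hours as gene means. Csf1, whose product M-CSF keeps osteoclast precursors alive, had a mean of 0.34 at 6 hours and 0.33 at 24 hours (adjusted p = 0.261 and 0.198) over 2 rows that opposed each other. Its row 1 had 0.75, 1.14 and 1.31 at 6 hours and 0.90, 1.06 and 1.24 at 24 hours, above 0 on every array. Tested alone, that row rose at 6 hours (1.07 ± 0.15, SE, adjusted p = 0.0332 in the joint fit) and at 24 hours (1.07 ± 0.15, adjusted p = 0.0119), and it was the only row of the other pathway genes to pass at 6 hours. On the 6-hour arrays alone its adjusted p was 0.0805. Row 2 had 0.79, -1.15 and -0.79 at 6 hours and -0.71, -0.25 and -0.23 at 24 hours and did not pass (0.519 and 0.431). Tested row by row, 14 rows of 12 pathway genes passed at 24 hours, of 4116 rows in all that did. They include rows 1 and 3 of Map3k14, which passed on opposite sides of 0. The share among the rows tested was not computed.

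**Figure D3:**
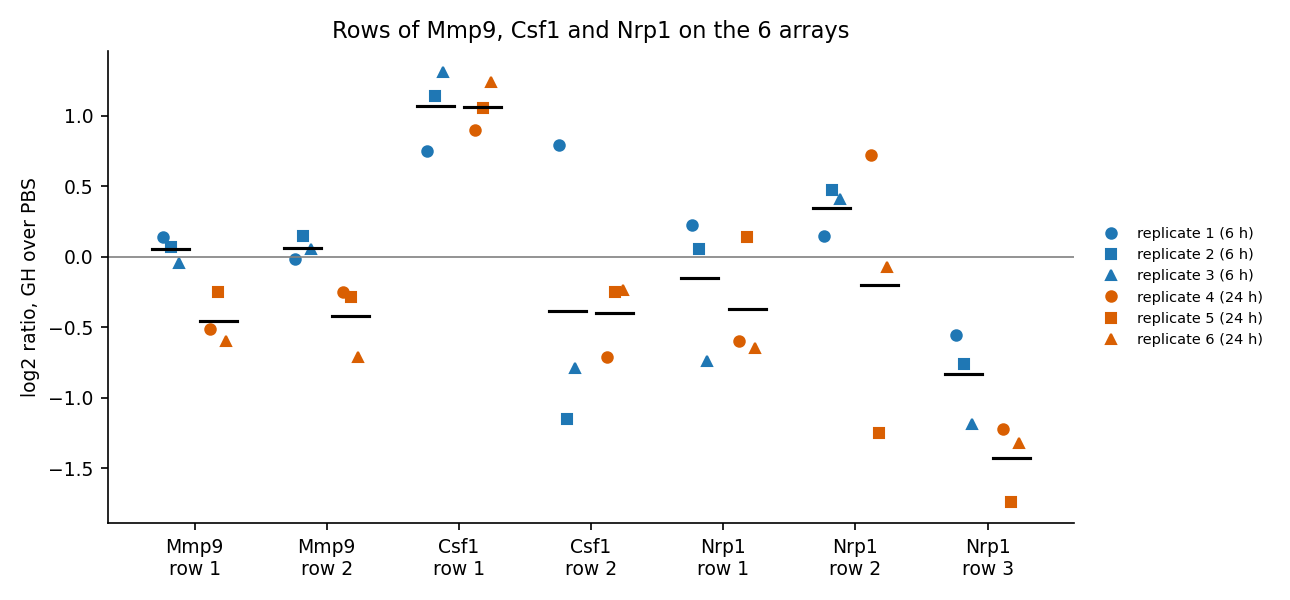
Log2 ratio of GH over PBS (y axis) of each row of Mmp9, Csf1 and Nrp1 (x axis), with a point for each array, blue at 6 hours and orange at 24 hours, and a black bar for the mean of 3 arrays. The 2 Mmp9 rows match on every array to within 0.263, while Csf1 row 1 (means 1.07 and 1.07) and row 2 (-0.38 and -0.40), and the 3 rows of Nrp1, differ.

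The agreement of the Mmp9 rows is measured by their root-mean-square difference over the 6 arrays, 0.143. Its median over 1430 genes with 2 complete rows was 0.683, and 1.40% of them had a smaller one. The difference was not scaled to the size of the ratios, and those of Mmp9 at 6 hours were close to 0. The other 5 genes have 1 row each, so no second row bears on their ratios.

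Among 9 measured transcription factor genes of osteoclast formation, Fos rose at 24 hours (0.91 ± 0.17, SE, adjusted p = 0.0192) and 8 did not pass. Fos belongs to AP-1, which osteoclast formation requires, and its ratios on the 24-hour arrays were 0.86, 0.96 and 0.92. These ratios were averages of 2 rows, and their near equality did not hold within either row. Of the 24-hour arrays, replicate 4 had the highest value in row 1 and the lowest in row 2. The myeloid factor gene Spi1 had 0.15 and the NF-kB gene Rela 0.13. Nfatc1, the gene of the master factor, was not analysed here.

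Of 10 measured effector genes of osteoclasts other than Calcr and Mmp9, 1 rose and 1 fell at 24 hours. Slc4a2, the chloride-bicarbonate exchanger of the resorbing cell, rose (0.82 ± 0.16, SE, adjusted p = 0.0225) and was above 0 on all 6 arrays, from 0.16 to 1.03. Ppargc1b, the gene of a coactivator of mitochondrial biogenesis in osteoclasts, fell (-1.54 ± 0.23, adjusted p = 0.0131) and was below 0 on all 6 arrays, from -0.20 to -1.89. Acp5, which encodes the tartrate-resistant acid phosphatase that stains osteoclasts, had 0.37 at 6 hours and 0.16 at 24 hours (adjusted p = 0.175 and 0.433). The acid secretion genes Tcirg1, Clcn7 and Ostm1 had 24-hour ratios of 0.095, 0.18 and 0.025, and the integrin gene Itgav had -0.62 (adjusted p = 0.0797). Both Clcn7 and Itgav averaged 2 rows that disagreed. Clcn7 had -0.040 in row 1 and 0.63 in row 2, which held no value on replicate 5. Neither Clcn7 row passed alone with limma (adjusted p = 0.819 and 0.138). Itgav had -1.80 in row 1, which passed alone (0.0107), and 0.56 in row 2 (0.163). Ctsk and Itgb3, further defining osteoclast genes, and the M-CSF receptor gene Csf1r were not analysed here. Calcr and Slc4a2 on one side and Mmp9 and Ppargc1b on the other thus show no single direction, and the median of the effector list without Calcr and Mmp9 was 0.060.

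**Figure D4:**
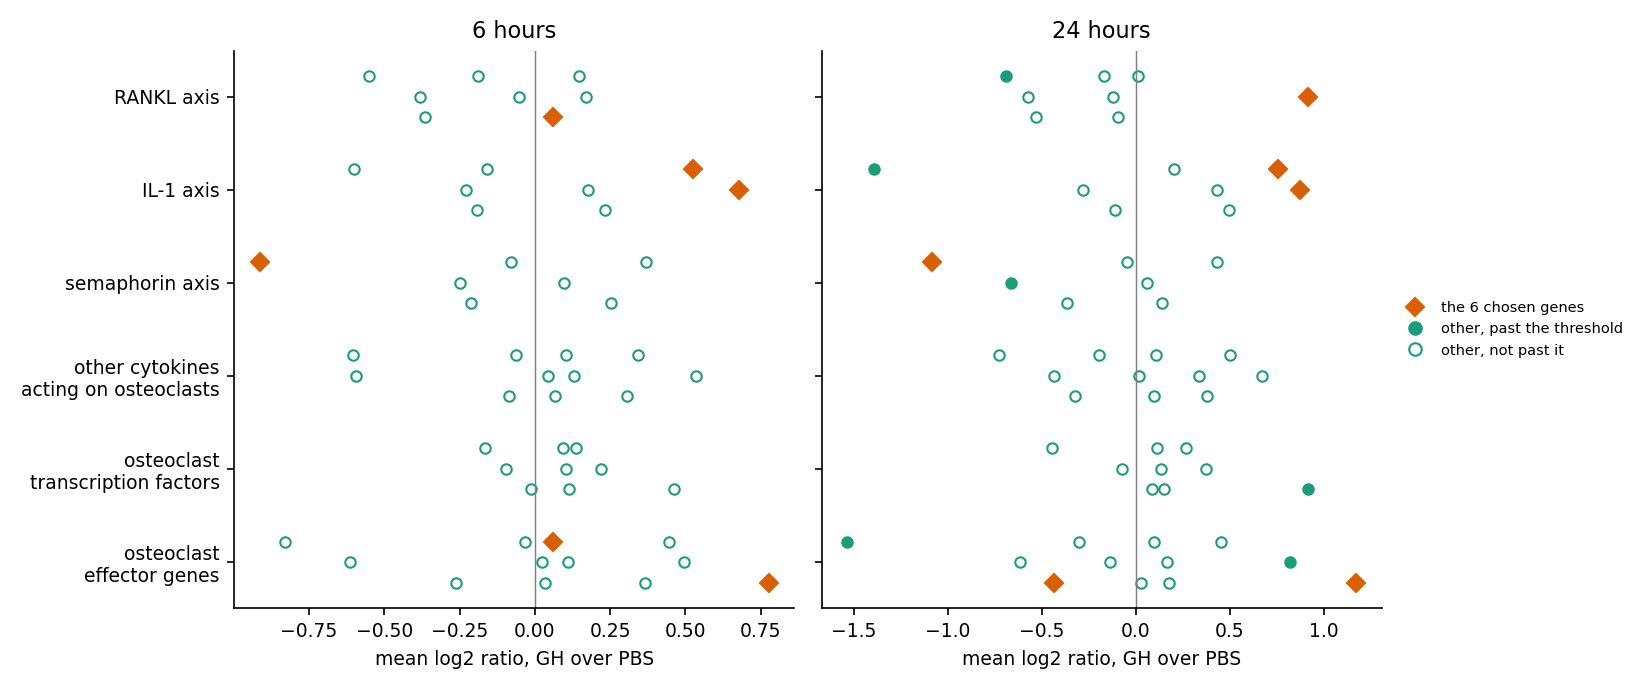
Mean log2 ratio of GH over PBS (x axis) at 6 hours (left) and 24 hours (right) of each measured gene in 6 pathway lists (y axis, points spread vertically for legibility), with the 6 chosen genes as orange diamonds and other genes as green circles, filled where the adjusted p of the joint fit was under 0.05. No other gene is filled at 6 hours, and at 24 hours Fos and Slc4a2 are filled above 0 and Lgr4, Casp1, Nrp1 and Ppargc1b below 0.

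Markers of other cells were set beside these values. Of 8 measured neutrophil lineage markers, 0 were above 0 at 6 hours and 1 at 24 hours. In the joint fit 4 (50%) fell at 24 hours, beside calls in 17.3% of named genes and 20.6% of all features. They were Mpo (-0.89), Ms4a3 (-1.30), Cd177 (-1.43) and Lcn2 (-1.44). The Mpo value was an average of 3 rows that disagreed. Tested alone with limma, these rows had -0.87 (adjusted p = 0.127), 0.028 (0.893) and -1.81 (0.0447). The list median was 0.048, -0.53 and -1.29 on the 6-hour arrays and -1.64, -0.64 and -0.77 on the 24-hour arrays. Mmp9, which neutrophils also express, was below 0 on the same 24-hour arrays. On replicates 2 and 3 it was 0.11 and 0.0064, and the list median there was -0.53 and -1.29. The part of neutrophils in the Mmp9 ratio was not tested. Il1b, a gene of neutrophils and monocytes, was above 0 on every array, and its lowest value fell on replicate 4, where the neutrophil median was lowest.

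Of 3 measured monocyte and macrophage markers (Lyz2, Fcgr1 and Ccr2) none passed and none was above 0 at either time, with medians of -0.31 and -0.34. Of 6 measured osteoblast and osteocyte markers, cells that release osteoprotegerin, none passed, 0 were above 0 at 24 hours and the median was -0.25, while Tnfrsf11b had 0.91. Skeletal muscle markers were above 0 in 8 of 8 genes at both times and none passed, with medians of 0.71 and 0.41. Their median was highest on replicates 3 (1.15) and 4 (0.97), where Il1b had its lowest values, and was 0.098 on replicates 1 and 5. Whether cell make-up contributes to the ratios of the 6 genes was not tested.

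**Figure D5:**
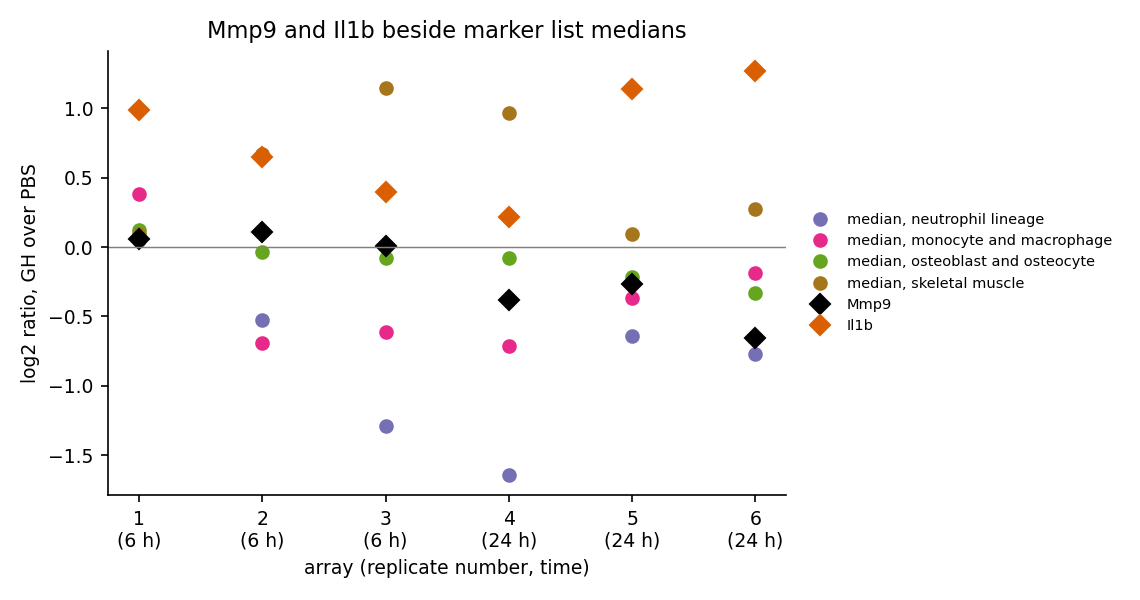
Log2 ratio of GH over PBS (y axis) on each of the 6 arrays (x axis, by replicate number and time) for Mmp9 (black diamonds) and Il1b (orange diamonds), beside the median ratio of 4 marker lists (circles). The neutrophil median is lowest on replicate 4 (-1.64), where Il1b is 0.21 and Mmp9 is -0.38.

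The named genes whose 6 ratios lay nearest to each of these were found by the root-mean-square difference over the 6 arrays, among 8154 genes, as a description. Nearest to Il1a were Keg1 (0.0823), Prmt8 (0.0881) and Kdf1 (0.0957), and nearest to Il1b were Knop1 (0.181), Lefty1 (0.193) and Pcf11 (0.243). For Tnfrsf11b they were Gtf2h3 (0.266), Pclaf (0.275) and Banp (0.294), and for Sema3a Crb3 (0.334), Syncrip (0.356) and Sinhcaf (0.357). Calcr was nearest to Gata3 (0.170), Lemd3 (0.178) and Ccdc65 (0.182), and Mmp9 to Setd2 (0.100), Cdk6 (0.115) and Zfp148 (0.117). Sema3a and Tnfrsf11b had the most distant nearest genes and Il1a the closest.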

How the data were processed

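The values that the authors deposited are log2 ratios, 1 for each row of an array, made from RNA that was linearly amplified and labelled with Cy5 (GH) or Cy3 (PBS), per the labels' protocols. The array medians lay between -0.0145 and 0.0286, and the sources used here do not give the extraction software, normalization or flags. The probe gene table named 11813 of 21446 rows with 1 symbol, 559 with several and 9074 with none. Rows of 1 symbol were averaged, and a feature needed values on at least 2 arrays of each time. Tests used limma 3.58.1 in R 4.3.3 (lmFit and eBayes, two-sided, Benjamini-Hochberg adjustment over all features, threshold 0.05). They were run on the 6-hour arrays alone (2 residual degrees of freedom, prior 2.83) or on all 6 arrays with 1 mean per time (4 and 2.51). The code was checked on simulated data with independent errors of equal spread on every array, whereas the spread of the real arrays differed. Errors are SD where so called and otherwise limma's SE. The 6 genes and all lists were chosen with earlier results of these data known. Named are the 6 genes, pathway genes past the joint threshold, 12 direct partners, up to 4 genes per marker list, the 3 nearest genes of each and, chosen after their values were seen, single further pathway genes. Alternatives were array centring, scaling, quantile normalization, single rows, missing-value rules, zeros as missing, robust empirical Bayes, array weights, scan file prefix and each replicate left out. Samples are pools of separate animals.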

Additional observations from a re-analysis of the deposited data

Results flagged for a closer look

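Mmp9 had gene means above 0 on all 3 arrays at 6 hours and below 0 on all 3 at 24 hours, a difference of -0.50 (24 minus 6 hours, log2). The difference did not pass in the joint fit of limma (adjusted p = 0.982), and the 24-hour values that enter it chose the gene. Each row by itself had 1 array below 0 at 6 hours, so the opposite sides hold for the mean of the rows and not for a single row.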

How the results depend on the processing

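The number of features called by limma moved with the setting. At 6 hours it was 0 on the 6-hour arrays alone, 603 in the joint fit and 6646 with array weights on the 6-hour arrays alone. In the joint fit the 6-hour count was 1782 with arrays scaled to 1 median absolute deviation, 1964 after quantile normalization, 6241 with array weights and 0 to 1501 with 1 replicate left out (0 without replicate 2, 3 or 4, with 1923, 2018 and 3883 at an unadjusted p under 0.05). The 24-hour count of 3444 was 2277 with each time fitted alone, 32 with that prefix of the scan files as a covariate, and 0 to 4201 with 1 replicate left out (0 without replicate 6, with 4124 unadjusted). Of the 49 other pathway genes, 6 passed at 24 hours. This count was 3 after scaling and 0 to 10 with 1 replicate left out. Counted in rows instead of genes, 14 rows of 12 genes passed, of 4116 rows in all that did. The share among the rows tested was not computed. At 6 hours the pathway count was 0 genes, but 1 row, 1 gene after quantile normalization, 14 with array weights and 0 to 1 with 1 replicate left out. The 6-hour ratio of Tnfrsf11b changed sign without replicate 3, from 0.059 to -0.0367, and reached 0.118 without replicate 2. No other 6-hour ratio of the 6 genes changed sign in the settings run. At 24 hours each gene has 1 sign on all 3 arrays, so leaving out an array could not change it. Sema3a at 24 hours was -1.84 on replicate 5 alone. The causes were not tested. Signal over background is unknown, and 3 arrays a time limit every value.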

Other observations

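Rows of other pathway genes also opposed each other at 24 hours. Itgav, the gene of an integrin subunit of osteoclasts and other cells, had -1.80 in row 1 (adjusted p = 0.0107) and 0.56 in row 2 (0.163) when each row was tested alone with limma. Map3k14, the kinase gene of the non-canonical NF-kB pathway downstream of RANK, had 0.68 in row 1 (adjusted p = 0.0290) and -0.75 in row 3 (0.0445), both past the threshold on opposite sides. Ikbkb, the gene of a kinase of the canonical pathway, had 0.84 in row 2 (0.0331) and -0.65 in row 3 (0.260). By contrast both Fos rows rose, to 0.88 (0.0234) and 0.95 (0.0253).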
